A study of Mus musculus with 2 samples.

Results

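The genes described here build cholesterol and fatty acids or control that synthesis. They were 33 genes chosen by name: 8 enzymes of the early sterol pathway, 9 of the late sterol pathway, 10 of fatty acid synthesis, elongation and desaturation, and 6 regulators of the sterol response. The array carried 64 probes that bore their names, of which 61 were well above background in the same dye on both arrays and were kept. Insig1 had 2 probes and neither was kept, so 32 of the 33 genes were measured, among 16585 genes and transcripts with a kept probe in all. RNA came from G1E-ER-GATA-1, a mouse erythroid line that lacks its own GATA-1 and carries a GATA-1 that oestrogen activates. One set of cells had received control siRNA and the other siRNA against ETO2, a corepressor (gene Cbfa2t3), and both were then kept in β-estradiol for 24 h. Both groups therefore share the GATA-1-null background, the inducible GATA-1, the transfection and the hormone, and neither is an untreated culture. The RNA of both groups was hybridised together to 2 two-colour Agilent arrays, replicates 1 and 2, with control RNA in Cy5 (red) and ETO2 siRNA RNA in Cy3 (green) each time. Because the dyes were not swapped, an effect of the dye on a probe and an effect of the siRNA cannot be told apart. Every ratio below is ETO2 siRNA over control siRNA on the log2 scale, so that positive values mean more signal after ETO2 siRNA, and every error is the SD over the 2 arrays.

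Cholesterol is made from acetyl-CoA through mevalonate, isoprenoid units and squalene, which is closed into lanosterol and then trimmed to cholesterol. Fatty acids are made from the same acetyl-CoA, which is carboxylated, chained into palmitate, and then elongated and desaturated. Both pathways are controlled by the SREBP transcription factors, which sit in the endoplasmic reticulum with their escort SCAP and are held there by the INSIG proteins while sterols are plentiful. When sterols run low SCAP carries SREBP to the Golgi, where it is cut and released to the nucleus, and the genes for the enzymes rise together. SREBP-2, from Srebf2, acts mainly on sterol genes, and SREBP-1, from Srebf1, mainly on fatty acid genes. Maturing erythroid cells need lipid for the membrane of the red cell while they shrink and lose their organelles.

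The siRNA target Cbfa2t3 was at 74.6% of control, with a log2 ratio of -0.42 ± 0.048 (limma, adjusted p = 8.98e-05). This is the value of the brighter of its 2 kept probes. The 2 arrays correlated over all genes at r = 0.861, a figure that describes genes and not replicates. The median spot was brighter in the control dye (104.8 and 104.9) than in the ETO2 siRNA dye (82.8 and 77.5), and 471 and 495 spots were saturated in red against 39 and 11 in green. All 10 erythroid markers listed were higher after ETO2 siRNA, by 0.16 to 2.88 on the log2 scale, though Klf1, Ermap and Hbb-y lay below 0 (-0.39, -0.22 and -0.37) with median centring. Of 8 mast cell and eosinophil markers 2 were higher and 4 lower, of 6 measured megakaryocyte markers 3 were higher (Pf4 among them, at -0.19 with median centring), and of 5 measured granulocyte and macrophage markers 2 were lower. Over all genes the same test (limma, adjusted p under 0.05) called 18.4% higher and 22.3% lower, 40.7% together. The labels name the cells embryonic stem cells as well as erythroid. Of the 8 embryonic stem cell markers listed, Pou5f1, Nanog, Sox2 and Zfp42 had no kept probe. The other 4, Utf1, Dppa5a, Tdgf1 and Dppa4, were well above background in both dyes on both arrays. Their normalized log2 signals in the control ran from 6.74 and 7.13 for Tdgf1 to 11.77 and 11.83 for Dppa4. Utf1 was lower (-0.23). Of the 6 hepatocyte and adipocyte markers a single one was above background. What part these shifts had in the lipid genes was not tested, and in bulk RNA fewer cells of a kind and less RNA per cell cannot be told apart.

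After ETO2 siRNA 7 of the 32 measured lipid genes were higher and 13 were lower, so that 62.5% passed the test (limma, adjusted p under 0.05 over all genes). Over all genes the same rule called 40.7%, with 18.4% higher and 22.3% lower. The excess depended on the scaling. With the scanner software's own processed signals 2 of the 32 were higher and 2 lower, against 14.9% of all genes called. The members moved both ways. Of the 32, 13 (40.6%) were called and at least 1.2-fold apart, against 22.9% of all genes, and 0 were at least 1.5-fold apart, against 3.48% of all genes, with Insig2 just under that fold. Whatever the call, the median absolute log2 ratio was 0.21 over the members and 0.13 over all genes. The 20 called members had the same sign on both arrays, as did 6751 of the 6755 called among all genes. Without regard to the call, the signs matched in 81.25% of the members and 79.0% of all genes. The genes that were higher were Mvk, Lss, Dhcr7, Elovl6, Fads1, Fads2 and Scap. The genes that were lower were Acat2, Hmgcs1, Fdps, Sqle, Tm7sf2, Ebp, Sc5d, Fasn, Scd2, Srebf1, Srebf2, Insig2 and Stard4. With loess the regulators had a median log2 ratio of -0.43. The medians of the other role groups then lay close to that of all genes, -0.02: -0.04 for early sterol, 0.04 for late sterol and -0.03 for fatty acid genes. Median centring over all spots gave, relative to the median of all genes, -0.25, -0.09 and -0.12 for these groups and -0.64 for the regulators. With the mean of all kept probes of a gene the regulator median was -0.16, since Insig2, Srebf2 and Stard4 had other probes with higher ratios. The late sterol median was below 0 on each single array, at -0.09 and -0.08.

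**Figure D1:**
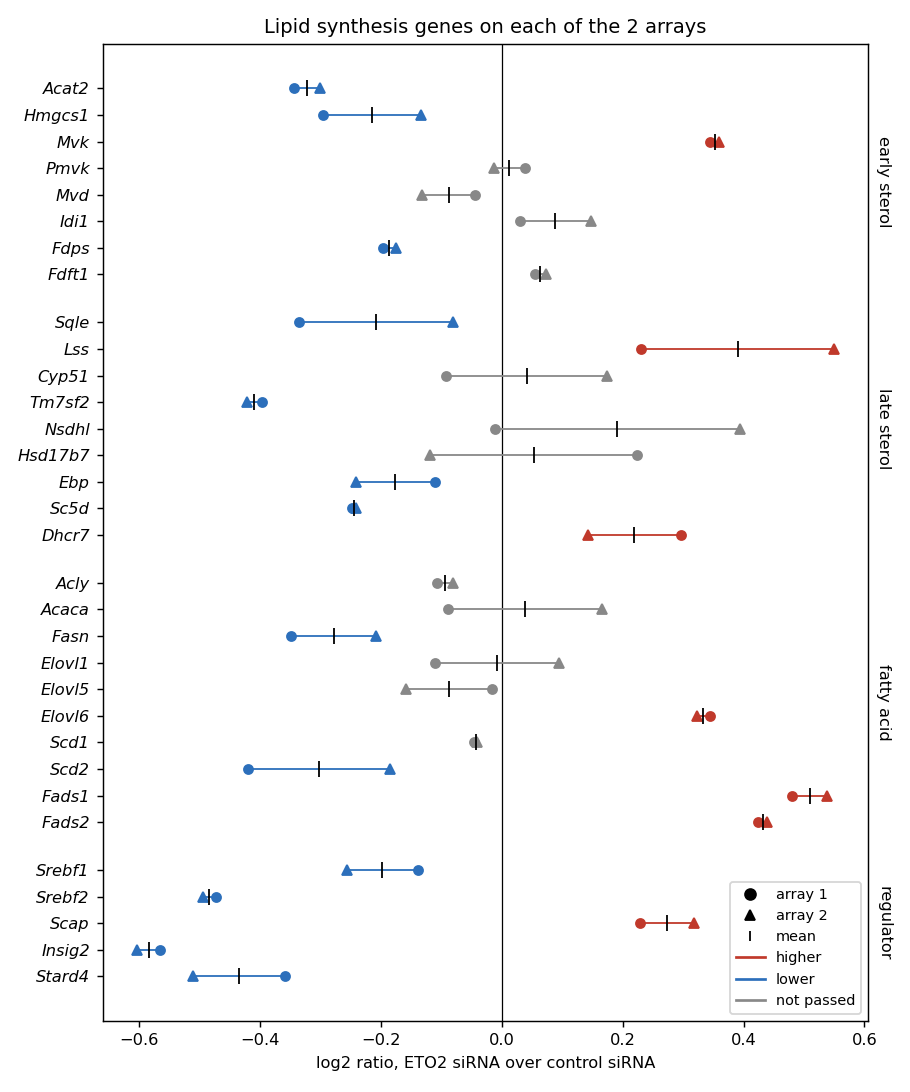
Log2 ratio of ETO2 siRNA over control siRNA (x axis) for the 32 measured genes (rows, by role). Circles are array 1, triangles array 2 and ticks their mean, red is higher, blue lower and grey did not pass; among the regulators Srebf1, Srebf2, Insig2 and Stard4 lie left of 0 on both arrays and Scap lies right of it, though Scap is at -0.25 when arrays are centred on their median.

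Among the regulators, 4 of 5 measured genes were lower and 1 was higher. Insig2, an endoplasmic reticulum protein that holds the SCAP and SREBP complex in place, had the lowest ratio of all members. Its normalized log2 signal went from 12.69 and 12.79 in the control to 12.12 and 12.19 after ETO2 siRNA, so the arrays gave -0.56 and -0.60. The groups did not overlap, and the mean of -0.58 ± 0.026 (n = 2, adjusted p = 4.35e-06) put Insig2 at 66.7% of control. Here and below a lack of overlap is stated for some called genes only, with loess and without a share over all genes. Hmgcs1, Fdps, Sqle and Dhcr7, for instance, did not overlap either. Srebf2, the gene for the sterol-acting SREBP-2, went from 14.81 and 14.91 to 14.33 and 14.41. That is 71.5% of control, with ratios of -0.47 and -0.49 on the single arrays and a mean of -0.48 ± 0.015 (n = 2, adjusted p = 2.54e-05). Stard4, a carrier that moves cholesterol between membranes and is itself a sterol-responsive gene, went from 12.52 and 12.35 to 12.17 and 11.84. Its ratios of -0.36 and -0.51 gave 74.1% of control (adjusted p = 0.000103), again with no overlap between the groups. Srebf1, which encodes SREBP-1, fell by 0.20 (-0.14 and -0.26, adjusted p = 0.0222). Scap, the escort, was the single regulator that was higher, at 0.27 (0.23 and 0.32, adjusted p = 0.0029). With a median centring of the arrays in place of loess its value was -0.25, while all genes moved to a median of -0.31. Relative to the median of all genes Scap was 0.29 higher with loess and 0.06 higher with that centring. Insig1, the other INSIG gene and itself a target of SREBP, was not well above background in either dye.

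The falls of Insig2 and Srebf2 rested on which probe stood for the gene. The value of a gene is that of its brightest kept probe, and the other probes of these genes read different stretches of transcript. The first 30 bases of each 60-base probe, as the array files list them, show that they are separate sequences. Among whole probes of a gene the longest shared stretch was 6 bases for Insig2 and 9 for Srebf2. No capitals are used, since no base in them is singled out, and the brightest probe of each gene comes first.

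Insig2 probe A_51_P439452: tatgtatacacaagcctaatggtagtagtg
Insig2 probe A_52_P113250: caatgtgccaaacgtgttactgacacagag
Insig2 probe A_52_P923173: tggaccttaagaagaaagtaaatggacaaa
Srebf2 probe A_52_P473344: tgggaggggttggtttttcactgaacaggg
Srebf2 probe A_52_P665742: aaactattcaaatgtccgtccatgggagag
Srebf2 probe A_51_P377508: aactaggtctttgcaccagagagcattttg
Srebf2 probe A_52_P302001: cagtgatgtggacttgaaaattgatgactt

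Insig2 was called in both directions by its probes. A_51_P439452 gave -0.58, A_52_P113250 gave 0.20 (adjusted p = 0.0188 in the fit over all probes) and A_52_P923173 gave 0.07 and did not pass. With the mean of all its probes Insig2 was at -0.10 and was no longer called. For Srebf2 the probes gave -0.48, -0.15, 0.13 and -0.16 in the order listed, and only the first passed. Its mean over probes, -0.16, was still called lower. Stard4 showed a milder spread, with -0.43 and -0.19 called lower and another probe at 0.05 that did not pass. The array files give each Insig2 probe its own transcript, while for Srebf2 they give the same transcript to the probes at 0.13 and -0.16 and other transcripts to the rest. Which transcripts of these genes the cells hold was not tested.

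The early sterol enzymes, which lead from acetyl-CoA to squalene, split into 1 gene that was higher, 3 that were lower and 4 that did not pass. Mvk, mevalonate kinase, went from 9.79 and 9.70 in the control to 10.13 and 10.06 after ETO2 siRNA. The arrays gave 0.34 and 0.36, and the mean of 0.35 ± 0.011 corresponds to 128% of control (adjusted p = 0.00039). Acat2, the cytosolic thiolase that joins acetyl-CoA units, moved the other way, from 8.24 and 8.44 to 7.90 and 8.14. Its ranges in the groups did not overlap, and its ratio was -0.32 ± 0.031 (adjusted p = 0.000801). Hmgcs1, which makes the next intermediate, had -0.30 on array 1 and -0.13 on array 2 and passed with a mean of -0.21 (adjusted p = 0.0164). Fdps, which makes farnesyl diphosphate, had -0.20 and -0.17 (adjusted p = 0.0261). Hmgcs1 was at 86.2% and Fdps at 87.9% of control. Hmgcs1 was not called with the mean of its probes (-0.15), an offset of 0 (-0.22) or the processed signals (-0.33). Acat2 (-0.08), Fdps (-0.02) and Mvk (0.26) were not called with the processed signals either. Fdps was also not called with an offset of 0 (-0.22). The remaining early sterol genes of the set did not pass, with Pmvk at 0.01, Mvd at -0.09, Idi1 at 0.09 and Fdft1, the squalene synthase that ends this branch, at 0.06. When arrays were centred on their median instead, Mvk was at -0.06 and did not pass, which is 0.25 above the median of all genes under that scaling.

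Among the late sterol enzymes, from squalene to cholesterol, 2 were higher, 4 were lower and 3 did not pass. Lss, lanosterol synthase, closes squalene epoxide into the first sterol and had the highest ratio of this branch, 0.39 ± 0.22 (adjusted p = 0.000739). Its arrays differed, with 0.23 on the first and 0.55 on the second, though the signals of 11.31 and 11.20 in the control and 11.54 and 11.75 after ETO2 siRNA did not overlap. Dhcr7, the enzyme of the last reduction, was at 0.22 (0.30 and 0.14, adjusted p = 0.014). With median centring Lss was at -0.09 and not called, and Dhcr7 at -0.34 and called lower. With the processed signals no gene of this branch was called, and Lss was at 0.29 and Dhcr7 at 0.01. Tm7sf2, a sterol reductase acting after demethylation of lanosterol, had the lowest ratio of the branch. It went from 11.43 and 11.51 to 11.04 and 11.09, that is to 75.3% of control, with -0.40 and -0.42 on the arrays and a mean of -0.41 ± 0.018 (adjusted p = 0.000113). Sc5d, the sterol desaturase, had -0.25 and -0.24, and Ebp, the sterol isomerase, had -0.11 and -0.24. Sqle, the squalene epoxidase that stands just before Lss, had -0.33 and -0.08 and a mean of -0.21 (adjusted p = 0.0277). Lss was not called with the mean of its probes (0.04), and Sqle was not called with an offset of 0 (-0.22) or the processed signals (-0.15). The arrays disagreed in sign for all 3 genes that did not pass. Cyp51, the lanosterol demethylase, had -0.09 and 0.17, Nsdhl had -0.01 and 0.39, and Hsd17b7 had 0.22 and -0.12. This branch had the widest spread between arrays, with a median SD of 0.18 over its genes against 0.034 for the early sterol genes and 0.062 for all genes.

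Of the fatty acid genes 3 were higher, 2 were lower and 5 did not pass. The highest ratios were those of Fads1 and Fads2, the neighbouring delta-5 and delta-6 desaturase genes that make polyunsaturated fatty acids. Fads1 went from 12.23 and 12.28 in the control to 12.71 and 12.82 after ETO2 siRNA. Its ratios of 0.48 and 0.54 gave 142% of control, the highest of the members measured (0.51 ± 0.041, adjusted p = 1.66e-05). Fads2 went from 11.90 and 11.93 to 12.32 and 12.37, with 0.42 and 0.44 and 135% of control (0.43 ± 0.010, adjusted p = 6.93e-05). In neither gene did the groups overlap. Elovl6, which lengthens palmitate, followed with 0.34 and 0.32 (mean 0.33 ± 0.015, adjusted p = 0.000589). With median centring these 3 genes were at -0.02, -0.08 and -0.01 and not called, which was 0.29, 0.23 and 0.30 above the median of all genes.

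Fasn, fatty acid synthase, had -0.35 and -0.21 and was at 82.5% of control (adjusted p = 0.00314). It was not called with the mean of its probes (-0.13) or the processed signals (-0.00). Its upstream enzymes did not pass: Acly, which supplies cytosolic acetyl-CoA, was at -0.09 and Acaca, which carboxylates it, at 0.04. The other elongases also did not pass, Elovl1 at -0.01 and Elovl5 at -0.09. Scd2, a stearoyl-CoA desaturase, was saturated in the control dye on both arrays. With loess its signal after ETO2 siRNA was therefore at least 1.23-fold lower (15.50 and 15.47 in the control, 15.08 and 15.29 after ETO2 siRNA, limma, adjusted p = 0.0028). That bound depends on the scaling, since with the processed signals Scd2 was at -0.10 and did not pass. Without saturated probes 12 members were lower. Scd1, its close relative, was not well above background after ETO2 siRNA and had 6.27 and 6.31 in the control and 6.22 and 6.27 after ETO2 siRNA, which did not pass.

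**Figure D2:**
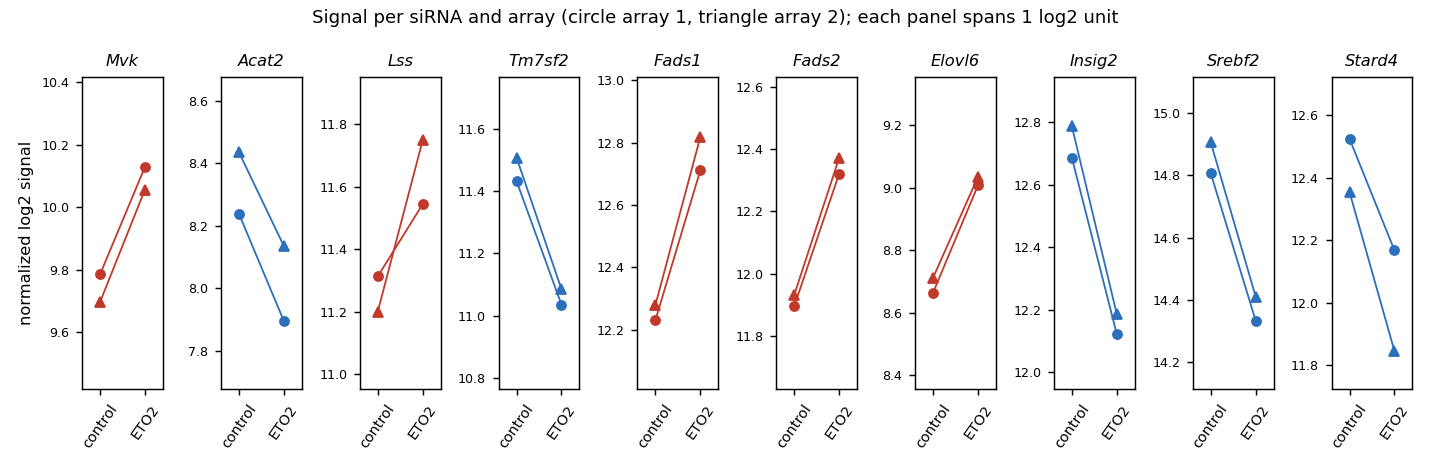
Normalized log2 signal (y axis) of 10 genes in control and ETO2 siRNA RNA, with circles for array 1 and triangles for array 2 joined within an array. The genes were picked from the called ones, and called genes nearly always share a sign on both arrays. Each panel spans 1 log2 unit around its own gene, and the levels of different genes are not comparable; the slopes have the same direction on both arrays in every panel, as in Fads1 with 0.48 and 0.54, before any other scaling (with median centring Mvk, Lss, Fads1, Fads2 and Elovl6 lie between -0.09 and -0.01).

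Of the 32 genes 18 had more than 1 kept probe, and their probes gave a second reading within the same RNA. Over all 61 kept probes 15 were higher, 17 were lower and 29 did not pass, so that 52.5% were called, against 39.4% of all kept probes (18.8% higher and 20.7% lower). In 11 of the 18 genes every probe had the same sign, and in 7 the signs were mixed. Both probes of Fdps were called lower, at -0.19 and -0.36, and both of Dhcr7 were called higher, at 0.22 and 0.18. Nsdhl, which did not pass by its brightest probe, was at 0.19, 0.22, 0.22 and 0.30 over its 4 probes, of which 3 were called higher. Pmvk, too, had a second probe called higher at 0.32, Idi1 one at 0.20 and Cyp51 one at 0.28. Lss was the other gene called in both directions: its brightest probe gave 0.39, the next 0.00 and the last -0.26. Fasn had -0.28 and 0.03, and Hmgcs1 had -0.21, 0.02 and -0.26. The range between the highest and the lowest probe of a gene had a median of 0.21 over these 18 genes and of 0.22 over the 5378 genes with several kept probes. It exceeded 0.3 in 6 of the 18 members (33.3%) and in 34.9% of all such genes. In 13 of the 18 members (72.2%) the brightest probe lay below the mean of the others, against 54.8% of all such genes. Fads1, Fads2, Acat2, Tm7sf2, Elovl6, Ebp, Sqle, Scd2, Srebf1 and Scap had a single kept probe and could not be compared in this way.

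**Figure D3:**
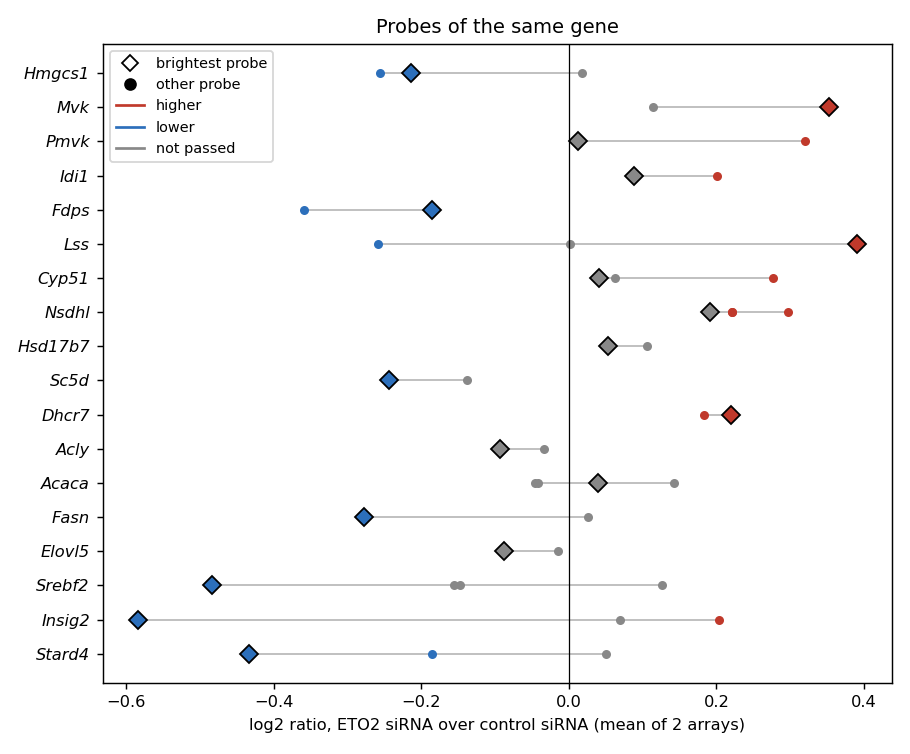
Log2 ratio of ETO2 siRNA over control siRNA, mean of 2 arrays (x axis), for every kept probe of the 18 genes with more than 1 (rows). Diamonds are the brightest probe and circles the others, coloured by their call in the fit over all probes; Insig2 runs from -0.58 to 0.20 and Lss from -0.26 to 0.39.

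The number of members called depended on how the dyes were brought to a common scale. From the scanner software's own processed signals 2 members were higher and 2 lower, against 14.9% of all genes called (7.19% higher and 7.66% lower). Those 4 were Fads1 (0.51), Fads2 (0.34), Insig2 (-0.35) and Stard4 (-0.39). In this setting Srebf2 was at -0.32 and Mvk at 0.26 without passing. With an offset of 0 in the background correction Dhcr7, Hmgcs1, Fdps, Sqle, Ebp and Srebf1 were no longer called. Median centring of each array over all spots, which leaves the brightness dependence of the dyes in place, gave 0 members higher (0 also at an unadjusted p under 0.05 in limma) and 26 lower, with 68.0% of all genes called (2.80% higher and 65.2% lower). Centring on the kept probes alone gave 6 higher and 20 lower, with 66.8% of all genes called (30.8% higher and 36.0% lower). Of the calls over all genes with the first centring, 4.12% were in the higher direction, against 45.2% with loess. Because that setting moves every gene, the members were also set against the median of all genes. With loess 15 members lay above it and 17 below, and with median centring 9 above and 23 below. Of the 7 genes called higher 6 lay above the median of all genes in all 9 alternatives, the exception being Dhcr7. Of the 13 called lower 12 lay below it in each alternative that measured them, the exception being Fasn, which was at -0.00 from the processed signals. The alternatives are not separate checks. Relative to the median of all genes both median centrings give the same values, and the processed signals and deposited ratios give nearly the same ones. The filters on dim or saturated probes leave the ratios of the members they keep as they were.

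**Figure D4:**
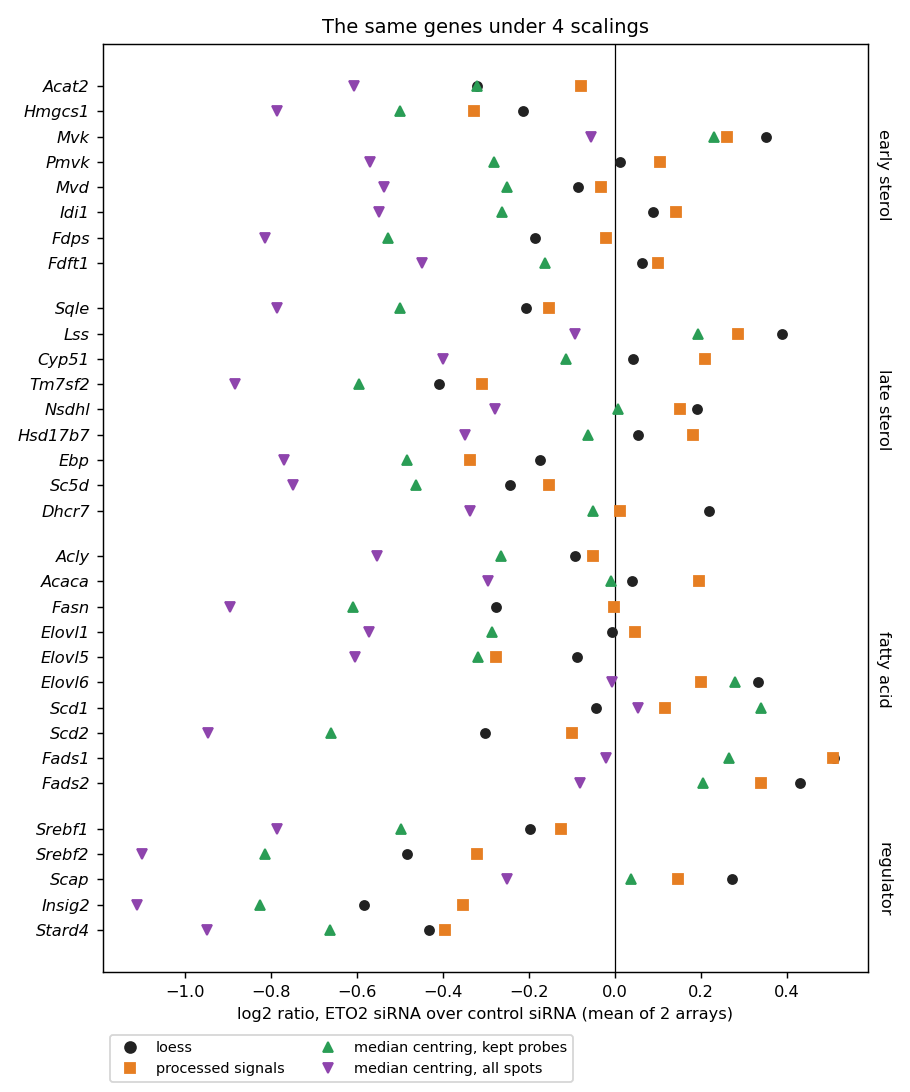
Log2 ratio of ETO2 siRNA over control siRNA, mean of 2 arrays (x axis), for the 32 genes (rows, by role) under loess, the processed signals and both median centrings. Median centring over all spots lies furthest left for every gene but Scd1, and takes Fads1 from 0.51 to -0.02 and Insig2 from -0.58 to -1.11.

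The DNA upstream of these genes was read as well, since SREBP is known to act with NF-Y, which binds the CCAAT box, and with Sp1, which binds GC boxes. RefSeq promoter windows of the mouse build GRCm38.p6 were at hand for 26 of the 33 genes, and the 250 bases before the start were searched on both strands. The windows below were chosen to show a fall with a sterol-type element (Hmgcs1 and Srebf2), a rise with many CCAAT boxes (Mvk) and a rise with none (Fads2). They lie at chr13:119690101-119690350 on the plus strand for Hmgcs1, chr15:82147019-82147268 on the plus strand for Srebf2, chr5:114444074-114444263 on the plus strand for Mvk and chr19:10101504-10101753 on the minus strand for Fads2. Bases inside annotated genes were left out, which shortened the Mvk window to 190 bases. Capitals mark CCAAT, read as ATTGG on the other strand, and TCACCCCA.

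Hmgcs1: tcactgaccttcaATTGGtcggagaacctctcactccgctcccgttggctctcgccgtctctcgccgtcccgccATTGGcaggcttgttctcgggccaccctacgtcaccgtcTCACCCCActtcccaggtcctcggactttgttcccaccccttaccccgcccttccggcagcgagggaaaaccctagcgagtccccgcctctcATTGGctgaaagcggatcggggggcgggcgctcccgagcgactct
Srebf2: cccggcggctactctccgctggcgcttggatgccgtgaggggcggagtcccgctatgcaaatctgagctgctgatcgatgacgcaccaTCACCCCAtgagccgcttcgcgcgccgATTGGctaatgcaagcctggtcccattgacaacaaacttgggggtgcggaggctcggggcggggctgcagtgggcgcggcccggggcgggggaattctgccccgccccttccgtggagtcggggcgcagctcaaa
Mvk: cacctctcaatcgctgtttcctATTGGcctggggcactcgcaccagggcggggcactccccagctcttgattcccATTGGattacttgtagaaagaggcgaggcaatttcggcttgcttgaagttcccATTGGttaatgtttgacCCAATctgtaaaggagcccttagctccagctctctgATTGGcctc
Fads2: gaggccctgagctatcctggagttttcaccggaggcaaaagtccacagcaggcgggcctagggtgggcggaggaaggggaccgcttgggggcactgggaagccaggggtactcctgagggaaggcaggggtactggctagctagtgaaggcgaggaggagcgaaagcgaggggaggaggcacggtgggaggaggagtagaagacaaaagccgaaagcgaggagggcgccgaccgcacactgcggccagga

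CCAAT was found in 20 of the 26 member genes (76.9%), in 37.5% of 27025 genes with a window and in 40.3% of the 10597 of those that were measured here. By window, 21 of 35 member windows (60.0%) and 33.8% of all 32851 windows held it. It stood in 5 of 6 early sterol genes, 8 of 8 late sterol genes, 4 of 5 regulators and 3 of 7 fatty acid genes. By call it stood in 3 of 6 genes that were higher, 8 of 9 that were lower and 8 of 10 that did not pass. The Mvk window held 5 copies, the Hmgcs1 window 3 and the Srebf2 window 1, while Fads2 had none. The sterol response element TCACCCCAC was found in a single member, Hmgcs1, and in 0.555% of all genes. Its first 8 letters, TCACCCCA, a search added after the Srebf2 window had been read, were found in Hmgcs1 and Srebf2 and in 1.54% of all genes. GGGCGG, the GC box, stood in 21 of 26 members (80.8%) and in 58.3% of the measured genes. The E-box CACGTG stood in 6 members (23.1%, against 9.35% of measured genes), and AGATAA, a form of the site that GATA factors bind, in Elovl1 only (3.85%, against 8.32%). These matches describe letters within the windows, and occupancy by a factor was not measured.

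Genes around the pathway were followed by 5 lists of other lipid genes, which together held 69 measured genes, 19 higher and 17 lower, against 18.4% higher and 22.3% lower over all genes. With the processed signals 4 were higher and 8 lower, and with median centring over all spots 2 and 51, against 2.80% and 65.2% of all genes. Of 13 measured isoprenoid and sterol enzymes outside the set 6 were higher and 2 lower, with a median of 0.16. Fntb, a subunit of protein farnesyltransferase, was at 0.41 and Ggps1, which makes geranylgeranyl diphosphate, at -0.47. With median centring the list had 1 gene higher and 10 lower, and Fntb was at -0.00. Of 10 genes for SREBP processing and turnover 1 was higher and 4 were lower, with a median of -0.14. The lower ones included Rnf139, a ubiquitin ligase of the endoplasmic reticulum, at -0.42, Mbtps1, the site-1 protease that cuts SREBP, at -0.23 and Erlin1, which takes part in sterol-dependent protein turnover, at -0.22. With the mean of all kept probes of a gene 1 gene of the list was higher and 1 was lower. Mbtps1 was then at 0.04 and did not pass, and it was not the only lower call that was lost. Rnf139, like Mbtps1, had 3 kept probes, and the -0.42 above is that of its brightest alone. Erlin1 had 1 kept probe, so its ratio is the same with the mean. With median centring all 10 were lower.

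Genes of cholesterol uptake, storage and export gave 4 higher and 2 lower of 11 measured, with a median of 0.02. With median centring 7 were lower and 0 higher, also at an unadjusted p under 0.05 in limma. For this list and those that follow, the shares of all genes were 18.4% higher and 22.3% lower with loess. With median centring over all spots they were 2.80% higher and 65.2% lower. Soat2, which esterifies cholesterol, was at -0.45, Abca1, a cholesterol exporter, at -0.30, and Mylip, a ubiquitin ligase for lipoprotein receptors, at 0.25. Of 20 genes that supply acetyl-CoA or NADPH or elongate and activate fatty acids 5 were higher and 4 lower, with a median of 0.04, and 1 was higher and 14 lower with median centring. Hacd3, a dehydratase of fatty acid elongation, fell to 60.2% of control (-0.73 ± 0.044), and Pgd, an NADPH-forming enzyme of the pentose phosphate pathway, to 63.7% (-0.65 ± 0.029). Acsl3, which activates long-chain fatty acids, was at 0.51. Of 15 genes of triglyceride and phospholipid synthesis 3 were higher and 5 lower, with a median of -0.06. With median centring 10 were lower and 0 higher, and with the mean of all probes 4 were lower and 0 higher, where an unadjusted p under 0.05 in limma gave 0 and 1 higher. Chpt1, which completes phosphatidylcholine, was at -0.56 and Lpin2, a phosphatidate phosphatase, at -0.48. Pcyt1a, the rate-controlling step of phosphatidylcholine synthesis, was at 0.44, and at -0.03 with median centring.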

How the data were processed

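RNA of ETO2 siRNA (Cy3) and control siRNA (Cy5) cells was measured on 2 two-colour arrays, replicates 1 and 2. The labels do not say that these came from separate cultures, so p-values measure only the spread between these arrays, which may be technical. Spots were read with Agilent Feature Extraction 9.1.3.1, per the submitters' processing notes and the file headers. Per the file headers, the intensity of spots and of their background was deposited as read, without normalization. A second intensity, from which the scanner software had taken the background and a dye trend per the file headers, gave a log10 ratio (red over green). In the authors' deposited table, 100% of features matched that log10 ratio within 0.6%, with a median of 0 in each column, which settles its scale and direction. Flags for saturation and background are those of the scanner, per the file headers. For the probes' genome build the sources used here give nothing.

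Spot means less local background were fitted by normexp (offset 50) and loess-normalized within each array in limma 3.58.1 (R 4.3.3), with control features at weight 0. Between-array quantile scaling of average signal gave the signal of each dye. Spots of a probe were averaged. A probe was kept if well above background in the same dye on both arrays (24430 of 41174), and a gene was read from its brightest kept probe. Log2 ratios were tested against 0 with lmFit and eBayes, two-sided, Benjamini-Hochberg adjusted over all 16585 genes, threshold 0.05. A separate fit covered all kept probes. With 1 residual degree of freedom per gene, the test rests on a shared variance (13.7 prior degrees of freedom, prior SD 0.0905), and a sign permutation of 2 arrays cannot go below 0.5. On simulated arrays of 16585 genes the test recovered 16% of genes changed 1.2-fold and 82% of those changed 1.5-fold. Only a small part of the genes was changed there, with noise of a fixed size. In the data 40.7% of genes were called, so these shares do not give the power on these arrays. A gene saturated in a dye on both arrays has its fold given as a bound, from means of normalized log2 signals, open to dye bias. The number of arrays limits the precision. Genes were named by accession through the RefSeq table of GRCm38.p6, or else by the array file. Promoter windows came from RefSeq (GRCm38.p6) and probe sequences from the array files.

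All members are named, with Cbfa2t3 and, from each list of other lipid genes, up to 3 members with the largest change past the threshold and the same sign on both arrays. 1 gene that this rule names is not reported here, though its list is counted with it. The members and lists were chosen with earlier results of these data known. Probes and promoters shown were chosen after their values were seen. Alternatives were an offset of 0, the processed signals, the deposited ratios, median centring over all spots or (added after seeing the data) over kept probes, other filters on dim or saturated probes, the mean of all probes of a gene, and each array alone.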

Additional observations from a re-analysis of the deposited data

How the results depend on the processing

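The filters on dim probes and on saturated probes changed no call of a member they kept, but leaving out saturated probes removed Scd2 and with it a lower call (12 lower), and asking for signal in both dyes removed Scd1. An offset of 0 left 6 members higher and moved the lower count to 8 and the late sterol median to 0.057. The processed signals and the deposited ratios each gave 2 higher and 2 lower, with medians of 0.040 for early sterol, 0.013 for late sterol, 0.081 for fatty acid genes and -0.32 for regulators. Median centring over all spots gave 0 higher and 26 lower, with medians of -0.56, -0.40, -0.42 and -0.95 in the same order. Over kept probes it gave 6 higher and 20 lower, with -0.27, -0.11, -0.14 and -0.66. The regulator median was -0.16 with the mean of all probes and -0.32 with no filter on dim probes, which brings in Insig1. On single arrays, where no test is possible, the late sterol median lay between -0.092 and -0.081. Signs turned with median centring over all spots for Mvk (-0.055), Pmvk (-0.57), Idi1 (-0.55), Fdft1 (-0.45), Lss (-0.093), Cyp51 (-0.40), Nsdhl (-0.28), Hsd17b7 (-0.35), Dhcr7 (-0.34), Acaca (-0.30), Elovl6 (-0.0071), Fads1 (-0.022), Fads2 (-0.082), Scap (-0.25), Scd1 (0.055), Fntb (-0.0015) and Pcyt1a (-0.028). Over kept probes they turned for Pmvk (-0.28), Idi1 (-0.26), Fdft1 (-0.16), Cyp51 (-0.11), Hsd17b7 (-0.062), Dhcr7 (-0.050), Acaca (-0.0089) and Scd1 (0.34), with the processed signals and deposited ratios for Elovl1 (0.047) and Scd1 (0.12), and with the mean of all probes for Mbtps1 (0.039). The cause was not tested. The design has a single group with both conditions on each array, so the pairing is already in the ratio that was tested. Precision is limited by 2 arrays without a dye swap.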
